A study of Mus musculus with 2 samples.

Results

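Contact pairs are CpGs with no base between them. They were found by sorting the autosomal CpGs of the methylation map by position and keeping every pair of consecutive CpGs whose starts differ by 2 bp, so that each pair reads CGCG. The rule gave 78882 pairs made of 147824 CpGs, 8.44% of the 1751212 measured autosomal CpGs and 18.9% of the 417683 CGCG sites of the autosomal reference. A CpG can belong to more than 1 pair where CGCG runs on into a longer stretch. Another 1522 pairs lay on chromosomes X and Y and were not members.

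Methylation was measured by reduced-representation bisulfite sequencing (RRBS), which cuts DNA with restriction enzymes, converts unmethylated cytosine and reads the fraction of cytosine left at each CpG of the kept fragments. The samples were mouse embryonic fibroblasts (MEFs), with 1 library for each of 2 genotypes. The Dnmt1-/- line is homozygous for a hypomorphic Dnmt1 allele, Dnmt1 n/n, so that some enzyme activity may be left, and both lines carry trp53-/-. With 1 library per genotype every test below compares the libraries and not the genotypes, and intervals cover counting error alone, since reads copied by PCR and not tagged by molecule are not independent.

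Dnmt1 is the maintenance methyltransferase. After replication it methylates the new strand at CpGs that are methylated on the old strand. CGCG places a pair of such substrates side by side, and it is also a protein recognition sequence: Zbtb33 (Kaiso) binds methylated CGCG, Banp binds an unmethylated palindrome around it, and E2F factors bind sequences that contain it. CGCG is frequent in CpG islands, the dense and usually unmethylated CpG stretches at many promoters.

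The following 60-base windows of the NCBIM37 (mm9) reference, plus strand, hold the 12 contact pairs that a fixed rule named among pairs with at least 30 calls at both CpGs in both libraries. The capitals mark the CGCG of the pair. The first windows show the highest Dnmt1-/- level among pairs at 80% or more at both CpGs in Dnmt1+/+, and the next the lowest. Then come the pairs whose CpGs differed most in Dnmt1-/-, and last the pairs that rose most from 20% or less.
Highest 1, chr4:32649786-32649845: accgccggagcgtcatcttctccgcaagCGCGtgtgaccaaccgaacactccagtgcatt
Highest 2, chr1:34235431-34235490: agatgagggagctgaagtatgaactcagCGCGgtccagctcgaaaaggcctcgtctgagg
Highest 3, chr3:83111309-83111368: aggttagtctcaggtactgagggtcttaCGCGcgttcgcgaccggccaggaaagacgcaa
Lowest 1, chr17:23471192-23471251: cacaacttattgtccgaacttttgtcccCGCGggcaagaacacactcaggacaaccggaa
Lowest 2, chr4:140409387-140409446: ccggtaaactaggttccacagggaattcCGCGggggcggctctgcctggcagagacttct
Lowest 3, chr12:21954667-21954726: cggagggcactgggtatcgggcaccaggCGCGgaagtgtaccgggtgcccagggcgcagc
Unlike 1, chr1:56838932-56838991: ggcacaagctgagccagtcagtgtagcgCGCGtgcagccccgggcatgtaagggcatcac
Unlike 2, chr12:100810242-100810301: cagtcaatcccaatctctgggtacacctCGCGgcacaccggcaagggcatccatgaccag
Unlike 3, chr7:87226218-87226277: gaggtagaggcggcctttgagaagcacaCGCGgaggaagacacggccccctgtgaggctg
Rise 1, chr11:96190055-96190114: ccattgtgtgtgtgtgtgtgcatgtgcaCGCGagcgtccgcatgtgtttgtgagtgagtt
Rise 2, chr2:61494590-61494649: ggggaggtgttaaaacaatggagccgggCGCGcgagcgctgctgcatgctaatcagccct
Rise 3, chr15:102858201-102858260: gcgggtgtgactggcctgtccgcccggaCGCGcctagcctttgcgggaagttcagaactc

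Most contact pairs were hardly methylated in either library, and those that were methylated in Dnmt1+/+ kept widely differing levels in Dnmt1-/-. The mean of the pair means was 17.1% in Dnmt1+/+ (SD over the 19 autosomes 1.69) and 8.28% in Dnmt1-/- (SD 0.989), and the medians were 2.08% and 1.28%. The SD over autosomes is a spread within a library, not between replicates. Measured autosomal CpGs outside CCGG and TCGA averaged 44.9% and 15.2%. CpGs inside those 2 sequences, the MspI and TaqI sites, were kept out of every comparison by distance, and no contact pair can hold one: 0 of the pairs did. The depth behind a pair was higher than that of the map, with a median of 47 calls in both libraries against 29 and 30 calls for all CpGs.

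In Dnmt1+/+ both CpGs were at 20% or less in 63114 pairs, which is 80.01% of them (low pairs). Both were at 80% or more in 9454 pairs, or 11.98% (high pairs). Another 2952 pairs lay between the limits at both CpGs, 3336 had CpGs on different sides of 1 limit, and 26 were split, with 1 CpG low and the other high. The split pairs were shallow, with a median depth of 17.5 calls in Dnmt1+/+, and 11 of them were 25 points or more apart in Dnmt1-/-. In Dnmt1-/- the low class grew to 86.4% and the high class fell to 851 pairs, 1.08%, with 6 split pairs. A pair was therefore rarely methylated at only 1 of its CpGs in either library.

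**Figure D1:**
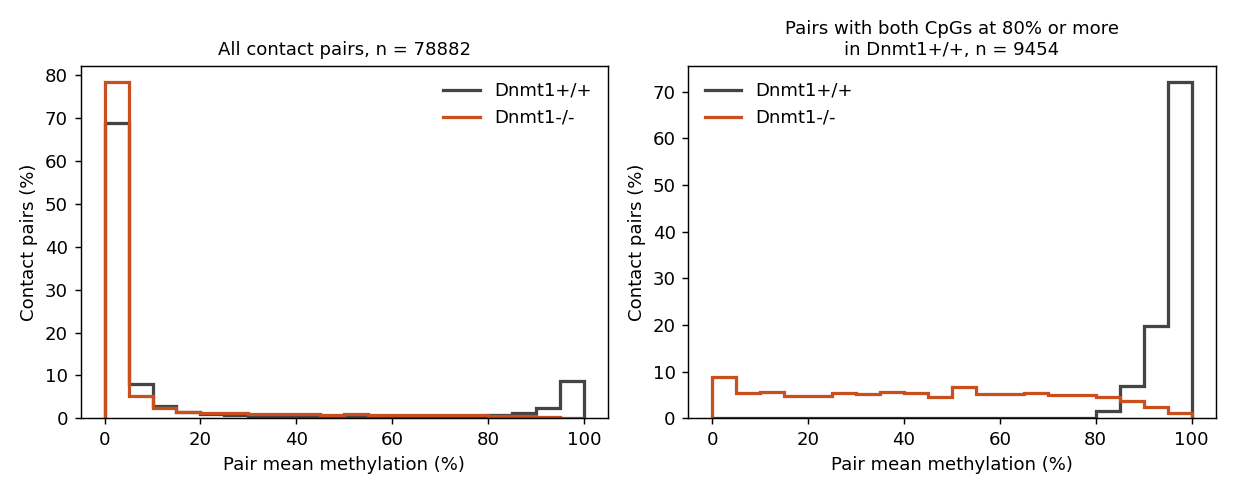
Distribution of the mean methylation of contact pairs (horizontal axis, percent, bins of 5 points) as a percent of pairs (vertical axis) in Dnmt1+/+ (grey) and Dnmt1-/- (orange), for all 78882 pairs on the left and for the 9454 pairs with both CpGs at 80% or more in Dnmt1+/+ on the right. In Dnmt1-/- the pairs on the right spread over the whole scale, with quartiles at 20% and 66.7%.

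Among the CpGs of contact pairs, 23192 (15.7%) were called lower in Dnmt1-/- (Fisher's exact test of the calls, two-sided, Benjamini-Hochberg adjusted across the whole table, threshold 0.05). The background was 43.7% of all CpGs and 44.2% of CpGs outside CCGG and TCGA. The share was smaller than the background, and 80.01% of the pairs had no more than 20% methylation at either CpG in Dnmt1+/+. CpGs called higher numbered 1544 (1.04%), where the background was 0.462% of all CpGs and 0.635% of those outside the enzyme sites. Both CpGs were called lower in 9774 pairs and higher in 483.

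High pairs kept a mean of 43.9% in Dnmt1-/- (SD over autosomes 1.98, range 40.1 to 48.3%), from 96.3% in Dnmt1+/+. Their choice by Dnmt1+/+ values fixes part of the fall, while the level left is a readout that the choice did not use. The Dnmt1-/- pair means had a median of 43.6% and quartiles of 20% and 66.7%, so that the pairs spread over the whole scale. Of the 9454 pairs, 4852 (51.3%) lay between 20% and 80% at both CpGs, 2080 (22.0%) were low at both and 802 (8.48%) were still high at both. At the ends of the scale, 331 pairs had no methylated call at either CpG and 21 had only methylated calls. Both CpGs were called lower in 6863 pairs (72.6%), 1 CpG in 1157 and neither in 1434, and the Dnmt1-/- pair mean was below that of Dnmt1+/+ in 9404 pairs (99.5%). Depth moved the mean little: it was 43.7% for high pairs with a minimum depth of 10 to 19 calls and 47.7% for those with at least 80.

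The 3 named pairs with the highest Dnmt1-/- level were not called different between the libraries. The pair Highest 1 lay in a coding exon of Bach2, a transcription repressor of lymphocytes. It had 39 of 41 and 38 of 41 methylated calls at its CpGs in Dnmt1+/+, and 40 of 40 and 39 of 40 in Dnmt1-/- (97.5%, 95% Wilson interval 87.1 to 99.6% at the second CpG). The pair Highest 2, in coding sequence of the cytoskeletal linker gene Dst within 1 kb of an annotated transcript start, went from 40 of 43 and 42 of 43 to 32 of 33 and 33 of 33. The intergenic pair Highest 3 read 54 of 54 at both CpGs in Dnmt1+/+ and 52 of 52 and 50 of 52 in Dnmt1-/-. Adjusted p over these 6 CpGs ranged from 0.389 to 1 by Fisher's exact test.

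The 3 lowest pairs, all intergenic, had no methylated call in Dnmt1-/-. The pair Lowest 1 read 124 of 134 and 128 of 134 in Dnmt1+/+ and 0 of 136 at both CpGs in Dnmt1-/-, which allows up to 2.21% (3 calls). The pair Lowest 2, 7722 bp from the start of Padi1, which encodes a peptidylarginine deiminase, fell from 78 of 88 and 84 of 88 to 0 of 124 and 0 of 122, which allows up to 2.42% and 2.46%. The pair Lowest 3 fell from 74 of 84 and 70 of 84 to 0 of 119 at both CpGs, which allows up to 2.52%. The largest adjusted p among these 6 CpGs was 3.26e-38. These pairs and the 3 highest were chosen for their Dnmt1-/- values, and the p-values describe them.

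**Figure D2:**
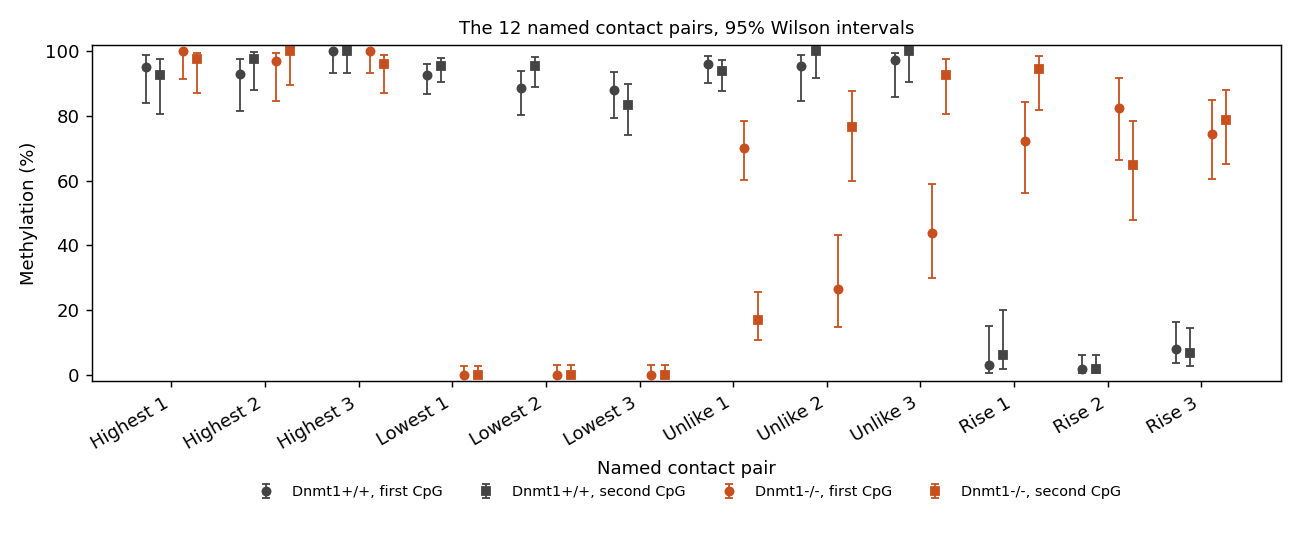
Methylation (vertical axis, percent) of the first CpG (circle) and the second CpG (square) of each of the 12 named contact pairs in Dnmt1+/+ (grey) and Dnmt1-/- (orange), with 95% Wilson intervals on the calls. The CpGs of the 3 pairs called unlike were both above 90% in Dnmt1+/+ and lay up to 53.4 points apart in Dnmt1-/-.

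The CpGs of a pair were close to each other in both libraries. Across all pairs Pearson's r between the first and the second CpG was 0.98 in Dnmt1+/+ and 0.95 in Dnmt1-/-, as a description over 78882 pairs in which both CpGs mostly share their reads: the depth was equal at both in 78.0% and 78.5% of pairs. The mean absolute difference was 3.29 points in Dnmt1+/+ and 2.99 in Dnmt1-/-. In the high pairs it was 9.38 points in Dnmt1-/- with a median of 7.14, r was 0.89, and 6187 pairs (65.4%) had CpGs within 10 points. Only 711 high pairs lay 25 points or more apart and 29 lay 50 points or more apart.

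The squared difference was set against the counting error of independent calls, for which the ratio is 1. For high pairs in Dnmt1-/- the ratio was 1.16. It was 0.923 where the shallower CpG had 10 to 19 calls, 1.30 at 20 to 39, 2.35 at 40 to 79 and 5.06 at 80 or more, so that it rose with depth, and calls from shared reads are not independent, which can put it under 1. The mean absolute difference hardly varied over these depths, from 8.35 to 10.2 points.

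By a Fisher's exact test on the calls of the CpGs of a pair, adjusted over all consecutive pairs up to 50 bp apart, 1433 contact pairs (1.82%) were called different in Dnmt1+/+ and 1118 (1.42%) in Dnmt1-/-. The background was 18% and 33.6% of all such pairs, and 4.21% and 5.74% of those with no CpG in CCGG or TCGA. This test treats the paired calls as independent. In 226 pairs the call was made in both libraries, and in 213 of these (94.2%) the same CpG was the higher. All 5 contact pairs that were 50 points or more apart in both libraries kept the direction. The like shares of other consecutive pairs are not given here. The first CpG on the plus strand was not favoured: the mean of first minus second was 0.017 points in Dnmt1+/+ and -0.020 in Dnmt1-/-.

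The named pairs with unlike CpGs were alike in Dnmt1+/+. The intergenic pair Unlike 1 read 96 of 100 and 94 of 100 in Dnmt1+/+, and 66 of 94 (70.2%) and 16 of 95 (16.8%) in Dnmt1-/-, with an adjusted p of 1.02e-12 within the pair by Fisher's exact test. It sits in a run of 3 CpGs. The pair Unlike 2 lay in an intron of a non-coding gene and read 41 of 43 and 43 of 43, against 9 of 34 (26.5%) and 26 of 34 (76.5%) in Dnmt1-/- (adjusted p = 0.000364, Fisher's exact test). The pair Unlike 3, in a coding exon of the zinc finger gene Zfp710, read 35 of 36 and 37 of 37, against 18 of 41 (43.9%) and 38 of 41 (92.7%) (adjusted p = 1.68e-05, Fisher's exact test). They were chosen for this difference among 3031 high pairs with at least 30 calls.

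To see what direct contact changes, the same values were taken for consecutive CpGs 3 to 20 bp apart, CpGs in CCGG and TCGA left out. Contact pairs had the smallest differences. Their mean absolute difference at high pairs in Dnmt1-/-, 9.38 points, stood against 12.3 to 16.5 at the other distances, and r over all pairs in Dnmt1-/- was 0.95 against 0.73 to 0.90. The difference was smaller than at 3 bp on 19 of 19 autosomes, with a mean of contact minus 3 bp of -2.96 points (SD 0.844). High pairs 3 bp apart had nearly the same share of equal depths, 87.4% against 88.2%, and the same median density of CpGs, 9 within 100 bp either side.

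The mean level left at high pairs was 43.9% at 2 bp, against a range of 32.2% at 20 bp to 42.4% at 8 bp. Contact pairs in runs of exactly 2 CpGs kept 41.6% (SD over autosomes 2.19). This was below the pairs 8 bp (SD 1.79) and 4 bp apart (SD 2.28), by gaps within the spread. Contact pairs thus did not hold the highest level without the longer runs, which were taken out at 2 bp only. At 3 bp the level left was 38.3%, lower than at contact on 19 of 19 autosomes (mean difference 5.65 points, SD 2.69). At 4 bp it was 42.0%, lower on 15 of 19 (mean difference 1.82, SD 2.25), a gap within the spread over autosomes. The comparison with 3 bp depended on where the pairs lay and on the enzyme sites. Intergenic contact pairs kept 38.7% against 29.4% at 3 bp, and intronic pairs 49.1% against 40.3%. In exons the values were 50.8% (SD over autosomes 4.03) and 47.6% (SD 4.53), a gap within the spread. In promoters the means were 42.4% and 41.5%, and the pooled calls there gave 41.6% and 32.1%. In promoters and exons the pairs 4 bp apart stood higher than contact pairs, at 45.6% (SD over autosomes 5.27) and 51.5% (SD 4.24) against 42.4% (SD 3.63) and 50.8% (SD 4.03), gaps within the spread. In introns and intergenic sequence they stood lower. The intronic values, 47.6% (SD 2.82) against 49.1% (SD 3.42), were also within the spread, and the intergenic values were 33.4% (SD 2.60) against 38.7% (SD 3.03). With CpGs in CCGG or TCGA kept, pairs 3 bp apart stood at 43.4%, a gap of 0.49 points, and pairs 4 bp apart at 46.3% (SD over autosomes 1.33), above contact pairs. With a depth of at least 20 calls, contact minus 4 bp was -0.16 points.

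**Figure D3:**
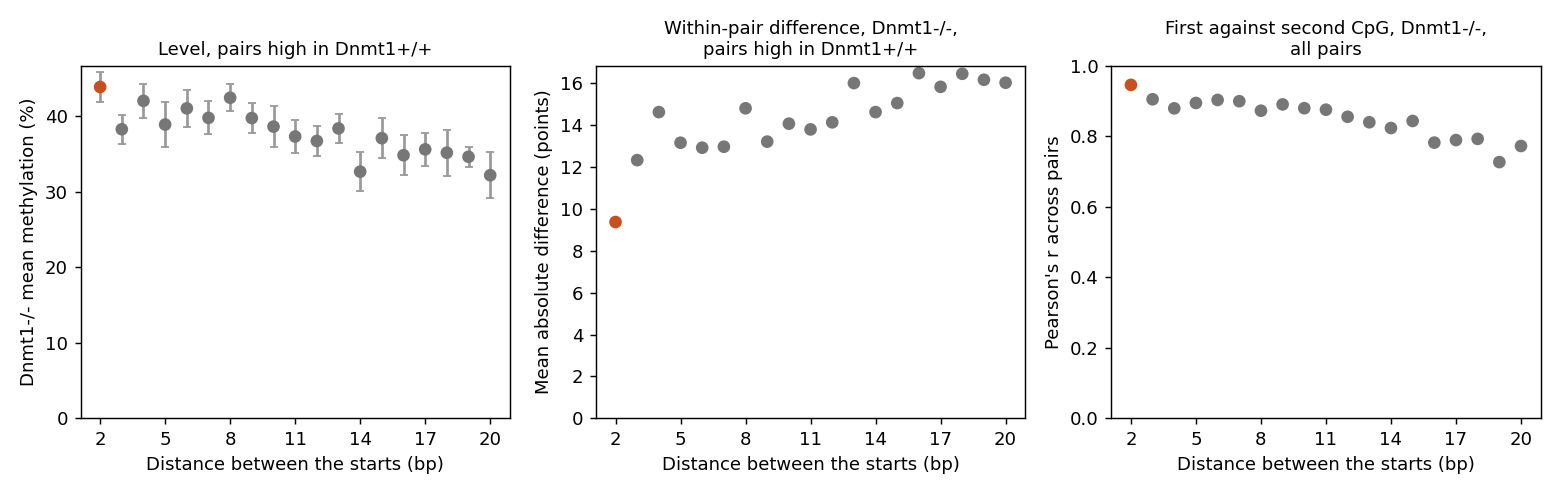
Consecutive CpGs by the distance between their starts (horizontal axis, 2 to 20 bp, CpGs in CCGG or TCGA left out), with contact pairs in orange. The panels show the mean Dnmt1-/- level of pairs at 80% or more at both CpGs in Dnmt1+/+ (percent, bars are the SD over 19 autosomes), the mean absolute within-pair difference of those pairs in Dnmt1-/- (points) and Pearson's r between the CpGs over all pairs in Dnmt1-/-; contact pairs are at 43.9%, 9.38 points and 0.95.

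By position, 75.8% of contact pairs lay within 1 kb of an annotated transcription start, against 47.9% of autosomal CpGs outside CCGG and TCGA. Exons held 5.57%, introns 6.53% and intergenic sequence 12.1%. The promoter share was not particular to contact, since it was 75.5% for pairs 3 bp apart. Of those pairs, 78.5% were low at both CpGs in Dnmt1+/+, against 80.01% at contact. Their average level, 18.3% in Dnmt1+/+ and 7.87% in Dnmt1-/-, was also near that of contact pairs. Low and high contact pairs differed in surroundings: low pairs had a median of 24 CpGs within 100 bp either side and high pairs 9. Promoter pairs were low at both CpGs in 93.7% of cases and high in 1.62%, while 49.0% of intronic and 46.2% of intergenic pairs were high.

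High pairs in genes kept more methylation in Dnmt1-/- than intergenic ones. Exonic pairs kept 50.8% (SD over autosomes 4.03, 1546 pairs) and intronic pairs 49.1% (SD 3.42, 2526 pairs). Promoter pairs kept 42.4% (SD 3.63, 971 pairs) and intergenic pairs 38.7% (SD 3.03, 4411 pairs). The ranges over autosomes of exonic (44.5 to 56.6%) and intergenic pairs (32.8 to 43.7%) did not overlap. Both CpGs stayed high in 13.2% of exonic and 5.10% of intergenic pairs. Exonic and intronic pairs were above intergenic pairs at every density of CpGs with at least 50 high pairs in each class. Among intergenic pairs the level rose from 32.4% with 2 to 5 CpGs nearby to 42.4% with 12 to 15, and was 33.5% with 16 to 20.

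**Figure D4:**
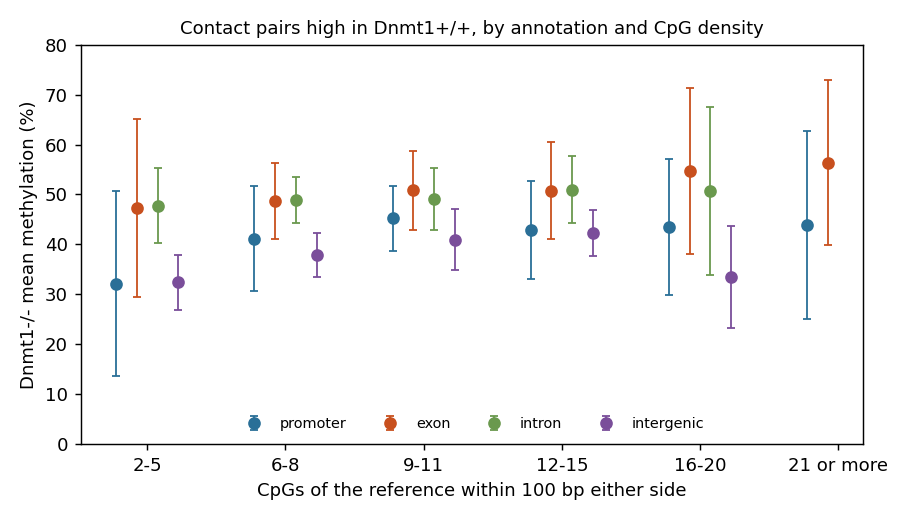
Mean Dnmt1-/- methylation (vertical axis, percent) of contact pairs at 80% or more at both CpGs in Dnmt1+/+, by the number of CpGs in the reference within 100 bp either side (horizontal axis) and by annotation (colour); bars are the SD over autosomes and classes with under 50 such pairs are left out. Exonic and intronic pairs lie above intergenic pairs in each density class that holds both.

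The bases next to CGCG went with large differences in the level left in Dnmt1-/-. There are 10 hexamers of the form NCGCGN when each is joined with its reverse complement. High pairs started from 95.7 to 97.2% in Dnmt1+/+ in all of them. In Dnmt1-/- they kept 57.6% in GCGCGC (SD over autosomes 4.87, 989 pairs), 50.96% in ACGCGC, 48.0% in CCGCGC and 46.3% in GCGCGA, the 4 hexamers with a G outside a CpG as read from outside the pair. ACGCGT followed with 44.3%. The lowest were CCGCGG with 34.6% (SD 3.76, 1240 pairs), TCGCGA with 35.0%, CCGCGA with 36.6%, ACGCGA with 37.0% and ACGCGG with 38.1%, which do not differ from their neighbours in this order beyond the SD over autosomes.

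GCGCGC stood above CCGCGG on 19 of 19 autosomes and was the highest of the 10 on 16 of 19. The order of this pair of hexamers was the same in each annotation class, with 48.8% against 34.1% in promoters, 61.2% against 41.3% in exons, 63.3% against 39.5% in introns and 55.0% against 31.1% in intergenic sequence. The hexamers with an outer G also take in longer CGCGCG runs. In pairs that form a run of exactly 2 CpGs, GCGCGC kept 53.3%, ACGCGC 50.4%, CCGCGC 45.4% and GCGCGA 43.7%. ACGCGT at 44.3% then lay above GCGCGA.

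The outer base separated the CpGs of the same pair in another order than the hexamer means, with outer C and not outer G the highest. Each CpG was read from outside as NCGCG, and pairs with unlike outer bases were compared within the pair. In high pairs in Dnmt1-/- the CpG with outer C exceeded its partner with outer A by 8.46 points (42.4% against 33.9%, SD over autosomes 1.77, higher on 19 of 19 autosomes, 1064 pairs). The C-side CpG was the higher in 66.8% of these pairs and the lower in 15.98%. In Dnmt1+/+ the same CpGs differed by 1.26 points (96.6% against 95.4%), where the choice of high pairs limits any difference. Over all contact pairs, outer C exceeded outer A by 1.63 points in Dnmt1+/+ and by 2.17 in Dnmt1-/-, each on 19 of 19 autosomes. Outer T exceeded outer A there by 2.36 and 1.87 points, and outer C minus outer T was -0.055 and 0.60. The order of A below C and T was thus present in Dnmt1+/+ too. In high pairs in Dnmt1-/- the difference of C and A was alike on either strand, 7.56 points with the C on the left and 9.25 with it on the right.

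Outer C also exceeded outer G by 5.88 points and outer T by 3.54, and outer T exceeded outer A by 5.31 points, with the direction on 19, 17 and 19 of 19 autosomes. In runs of exactly 2 CpGs the difference of C and G was 3.48 points (18 of 19 autosomes). Outer G exceeded outer A by 3.71 points and outer T exceeded outer G by 1.94, each on 18 of 19 autosomes, but T and G differed by 0.56 points in runs of 2 (11 of 19).

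CGCG extended into longer runs in which each CpG touches the next. Runs of 2 CpGs numbered 60615, runs of 3 numbered 7117, runs of 4 numbered 965 and longer ones 245, and the longest held 11 CpGs. High pairs kept 41.6% in runs of 2 (SD over autosomes 2.19, 7999 pairs) and 54.9% in runs of 3 (SD 4.37, 1272 pairs). Every pair in a longer run has an outer G. Among pairs with an outer G in 20-base windows that occur a single time among the CGCG sites of the reference, runs of 2 kept 49.2% (2606 pairs) and runs of 3 kept 52.2% (392 pairs), while in windows with more copies they kept 40.9% (630 pairs) and 56.2% (880 pairs). In runs of 4 they kept 67.7% (SD 14.8, 113 pairs from 41 runs) and in longer runs 59.9% (SD 22.7, 70 pairs from 14 runs), and these last values do not differ beyond their spread. In the 602 runs of 3 with all CpGs at 80% or more in Dnmt1+/+, the middle CpG kept 52.0% and the outer ones 58.3%. The middle one was lower by 6.26 points (SD 2.21) on 19 of 19 autosomes. In Dnmt1+/+ it was 96.2% at both places, where the choice of runs limits any difference. Over all 7117 runs of 3 the middle CpG was the lower in both libraries. It averaged 12.8% against 13.6% in Dnmt1+/+, and 7.63% against 8.66% in Dnmt1-/-. Pairs of a run share CpGs and are not independent.

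Many high pairs lay in repeated sequence. Of the high pairs, 6117 sat in a 20-base window that occurs a single time among the CGCG sites of the reference, 962 in windows with 2 to 10 copies and 2375 in windows with over 10. Over all contact pairs 92.4% lay in single windows. High pairs kept 44.5% in single windows (SD over autosomes 2.12), 42.1% at 2 to 10 copies (SD 6.002) and 42.9% at over 10 (SD 3.06), and these did not differ beyond the spread. Intergenic pairs made up 33.1%, 64.1% and 74.4% of these classes. The windows that held most high pairs are shown with the CGCG in capitals, on whichever strand comes first in the alphabet.
Window 1: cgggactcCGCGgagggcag
Window 2: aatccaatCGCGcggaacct
Window 3: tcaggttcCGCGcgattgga
Window 4: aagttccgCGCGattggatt
Window 1, a CCGCGG hexamer with 1557 copies in the reference, held 258 high pairs, whose Dnmt1-/- level ran from 0% to 88.6% with a median of 39.01%. Windows 2 and 3 share 18 of 20 bases when 1 is read on the other strand, and they are the overlapping pairs of a run of 3 CpGs. Their 153 and 145 high pairs had medians of 52.2% and 55.3%, with ranges of 0 to 92.3% and 0 to 95.5%. Window 4, with 2528 copies in the reference, differs by 1 base from window 2 read on the other strand. It held 94 high pairs with a median of 53.8% and a range of 11.1 to 100%. Copies of an identical window thus differed over most of the scale in Dnmt1-/-. How reads of repeated windows were assigned to copies is not given in the sources used here. Within single windows, GCGCGC kept 56.5% and CCGCGG 34.7%, and outer C exceeded outer A by 8.59 points.

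The recognition sequences searched were CTCGCGAG, the core of the Banp palindrome, and TTTCGCGC or GCGCGAAA, an E2F-type sequence, on both strands, and no pair held both. CTCGCGAG held 283 contact pairs, 0.359% of them, against 0.274% of all CGCG sites in the autosomal reference. These averaged 12.7% in Dnmt1+/+ and 4.86% in Dnmt1-/-, and 83.7% were low at both CpGs. Other pairs of the same hexamer TCGCGA averaged 31.7% and 12.1%, with 64.4% low, and fewer of them lay in promoters, 62.1% against 84.8%. The 22 high pairs in CTCGCGAG kept 38.0%, and the 300 other high pairs of the hexamer 34.8%. TTTCGCGC held 121 pairs, 0.153% against 0.230% of the reference, with 18.6% in Dnmt1+/+ and 10.01% in Dnmt1-/-, close to the 22.7% and 11.4% of other GCGCGA pairs. A match is a description of letters and not a bound site.

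Pairs at 40 to 60% at both CpGs in Dnmt1+/+ numbered 484. They averaged 20.3% in Dnmt1-/-, where 277 (57.2%) were low at both CpGs and 3 were high.

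Low pairs had a mean of 2.35% in Dnmt1+/+ and 1.81% in Dnmt1-/-, 284 of 63114 (0.450%) rose by 25 points or more, and both CpGs were called higher in 372 (0.589%). Over all contact pairs both CpGs were called higher in 0.612%. The pair Rise 1 lay within 1 kb of a transcript start of Hoxb3, a homeobox gene of the HoxB cluster, and went from 1 of 34 and 2 of 32 calls to 26 of 36 and 34 of 36 (adjusted p = 6.36e-09 and 3.78e-13, Fisher's exact test). The intergenic pair Rise 2, 55133 bp from the start of Psmd14, went from 2 of 117 and 2 of 116 to 28 of 34 and 22 of 34. The pair Rise 3, in an intron of Hoxc4, went from 6 of 76 and 5 of 76 to 35 of 47 and 37 of 47. They were chosen for their rise among 43811 low pairs with at least 30 calls. In each of them both CpGs were called higher.

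Contact pairs within 1 kb of the start of listed genes were read by pair, with the annotated start of the whole gene as the only start, and a pair counted when both CpGs were called. In contact pairs of all kinds 9774 of 78882 (12.4%) were called lower at both CpGs and 483 (0.612%) higher. Of 39 Hox genes, the homeobox genes that set position along the body axis, 26 had contact pairs, 105 in all, with 5 pairs lower and 5 higher. The pair Rise 1, near a start of a Hoxb3 transcript 5443 bp from the start of the gene, is not among them. The higher pairs by this reading lay at Hoxb4, where 2 pairs went from 12.04% to 70.7%, at Hoxd12, where 1 pair went from 33.3% to 76.5%, and at Hoxa5, where 2 of 4 pairs were called and the mean went from 4.32% to 25.2%. Pairs at Hoxc10 went the other way, from 59.1% to 15.9% over 2 pairs with 1 called lower. The other lower pairs were 2 of 4 at Hoxa11, 1 of 16 at Hoxa4 and the single pair at Hoxa9. The 8 pairs at Hoxd13 averaged 4.63% and 0.581%, with none called.

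Imprinted genes are expressed from 1 parental allele and carry methylation on 1 allele at control regions. Of 18 listed, 10 had contact pairs, 52 in all, with 11 lower and 6 higher. All 5 pairs at Plagl1, a zinc finger gene, fell, from 37.7 to 53.0% in Dnmt1+/+ to between 0 and 1.59% in Dnmt1-/-. The single pairs at Peg10 and Zrsr1 fell from 39.02% to 2.11% and from 38.2% to 1.92%. At Nnat 2 of 6 pairs were called lower, and the mean went from 43.5% to 30.5%. At Gnas, a G protein gene, 1 of 5 pairs was called lower (mean 47.7% and 34.7%) and at Nap1l5 1 of 2 (51.9% and 16.2%). The 6 pairs at Mcts2 averaged 42.2% and 26.4% with none called. The 6 higher pairs were all at the start of Igf2r, the receptor that clears Igf2, where 11 pairs went from a mean of 35.0% (29.7 to 49.2%) to 65.3% (34.2 to 85.1%). In Dnmt1-/- the lowest of the 11 was inside the range of Dnmt1+/+, and these neighbouring pairs share reads.

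Of 14 germline genes, which are methylated in somatic cells, 5 had contact pairs, 21 in all, with 14 lower and none higher. The 3 pairs at Slc25a31, a mitochondrial carrier of the testis, fell from 97.1% to 14.4%, and the 3 at Mael, of the piRNA pathway, from 98.4% to 26.7%. At Dazl, an RNA-binding protein of germ cells, 5 of 8 pairs were called lower and the mean went from 51.04% to 23.2%, and at the helicase gene Ddx4 3 of 6, from 78.1% to 32.02%. The single pair at Stk31 read 97.2% and 81.5% and was not called. Genes of proteins that write, erase or read CpG methylation had 68 contact pairs at 11 of 14 genes, and none was called in either direction. At Dnmt1 itself 5 pairs averaged 0% and 0.183%, and at Dnmt3b 9 pairs averaged 1.07% and 0.612%.

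Over gene bodies with 1 kb either side, 8 protein-coding genes had at least 10 high pairs. Zfhx3 (chromosome 8, 111238544 to 111485521), a homeodomain transcription factor gene, kept the most, with a mean of 71.5% over 10 pairs (22.5 to 86.7%), and Wwox, an oxidoreductase gene, kept 61.8% over 13 pairs. Gm20388, a gene model that spans many neighbouring genes, had 49.1% over 56 pairs, C130026I21Rik had 41.5% over 12, Camta1 26.5% over 10 and Chst13 25.4% over 10. In Camta1 the pairs ranged from 0 to 51.7% and in Wwox from 9.80 to 89.1%.

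Among 2021 genes with at least 10 low pairs, 11 were higher in Dnmt1-/- by 10 points or more in the mean over those pairs. Dock1 (chromosome 7, 141862370 to 142365322), which activates Rac in cell migration, went from 3.90% to 29.1% over 10 pairs (0 to 60.5% in Dnmt1-/-). The mean of 11 pairs at 5330438I03Rik went from 5.84% to 23.9%, that of 15 pairs at the glutamate receptor gene Grin2c from 3.40% to 20.3%, that of 10 pairs at Sh3pxd2a from 3.79% to 19.2% and that of 14 pairs at Igdcc3 from 4.85% to 18.4%. The median change over all 2021 genes was -0.40 points.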

How the data were processed

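RRBS data came from 1 Dnmt1+/+ and 1 Dnmt1-/- library of MEFs. A sequencing provider made the libraries and the calls. Bismark and the mm9 build are named in the submitters' processing notes, with no version, and the conversion rate is not given in the sources used here. The deposited depth is a count of calls at each CpG, at least 10 in both libraries, and the deposited percent gives the methylated share of those calls. All 1790826 positions fell on CG in NCBIM37, and percent times depth gave whole calls, to within 0.0001, for 100% of CpGs. The table holds 74636195 and 78401157 calls.

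Pairs, annotation (GENCODE vM1, promoters 1 kb either side of a start), hexamers, runs and windows were derived in python 3.11.15 (pandas 2.3.3, numpy 2.4.6; tests with numba 0.67.0 and scipy 1.17.1; figures with matplotlib 3.10.9). Calls were compared by two-sided Fisher's exact tests with Benjamini-Hochberg adjustment over all CpGs of the table, or over all consecutive pairs up to 50 bp apart within a library, at 0.05, which were checked on simulated data. No test was run across pairs. Intervals are 95% Wilson intervals, and 0 calls allow 3 calls of the depth. At the lowest depth of 10 this is 30%.

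Members, gene lists and the naming rule were chosen with earlier results of these data known. Among pairs with at least 30 calls, at most 1 per 10 kb and none on chromosome 18, the rule named the 3 highest, 3 lowest and 3 most unlike high pairs and the 3 low pairs with the largest rise. It named genes with at least 10 high or low pairs by the 5 highest, 5 lowest and 5 largest rises. Alternatives were depths of at least 20, removal of the deepest CpGs, all chromosomes, runs of 2, distance from CCGG and TCGA, limits of 10% and 90%, pooled calls, an adjusted p under 0.01, a 25-point difference and promoters of 500 bp. The split by window copies, and runs of 2 in the comparison by distance, were added after seeing the data. Histone marks and expression, also measured in the study, were not analysed here. Values of 2 of the genes that the rule named are not reported here.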

Additional observations from a re-analysis of the deposited data

How the results depend on the processing

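No paired analysis was possible because there is only 1 library for either genotype, and no replicate could be left out. Of 97 alternatives computed, 35 kept the value within an interval around it or the count within 1.5 times. That interval covered counting error for levels and shares. For within-pair and outer-base differences it came from the standard error over pairs, which treats overlapping pairs as independent. In 55 alternatives the value moved beyond the interval, in 4 a count fell by a factor above 1.5, and 3 changed the sign of a difference. These were all of contact minus 4 bp in the level left at high pairs, 1.84 points, which became -0.16 at a depth of at least 20, -2.49 with CpGs in CCGG or TCGA kept and -0.40 in runs of 2, the last added after seeing the data. The difference from 3 bp became 3.36 points in runs of 2. The cause of the shifts was not tested. With a depth of at least 20 at both CpGs, 82.2% of pairs were left, the mean of all pairs was 12.8% in Dnmt1+/+ and 6.43% in Dnmt1-/-, 84.9% were low and 8.11% high in Dnmt1+/+, and the mean absolute difference was 2.94 and 2.49 points. At that depth high pairs 3 bp apart kept 40.2% and the gap to contact pairs was 3.76 points, exonic pairs kept 51.3%, intergenic 37.8%, GCGCGC 58.6%, CCGCGG 33.7%, runs of 2 42.2% and runs of 3 55.3%, and outer C exceeded outer G by 5.04 points. Without depths above the 99th percentile the means were 17.8% and 8.60%, the low and high shares 79.2% and 12.6%, and the differences 3.36 and 3.07 points. All chromosomes gave means of 17.3% and 8.39%. Runs of 2 only gave 18.6% and 8.52%, shares of 78.1% and 13.2%, differences of 3.42 and 3.07 points, 41.6% at high pairs, 53.3% in GCGCGC, and 3.48 and 0.56 points for outer C and outer T over outer G. Pairs more than 10 bp from CCGG and TCGA gave 16.6% and 8.12%, shares of 80.4% and 11.4%, and 44.2% at high pairs. Pooled calls gave means of 10.96% and 5.59%. Limits of 10% and 90% gave 74.2% low and 9.84% high pairs, which kept 45.8%. An adjusted p under 0.01 left 999 CpGs called higher and 798 and 498 pairs called different within Dnmt1+/+ and Dnmt1-/-, and a difference of at least 25 points left 761 CpGs called higher. With CpGs in CCGG or TCGA kept, pairs 3 bp apart kept 43.4% and the gap was 0.49 points. Promoters of 500 bp gave 43.2% in promoters, 50.2% in exons and 48.8% in introns. Windows found a single time, an alternative chosen after seeing the data, gave 44.5% at high pairs, 56.5% in GCGCGC, 43.7% in runs of 2, 52.2% in runs of 3, and 3.95 and 1.26 points for outer C and outer T over outer G.

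Depth limits single pairs: high pairs had a median of 26 calls in Dnmt1-/-. A split into repeats and other sequence was not run, because the reference used is not masked. Counting intervals leave out variation between cultures.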
